A study of Rattus norvegicus with 18 samples.

Results

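The miR-34 family was examined in small RNA libraries from rat gastrocnemius, a calf muscle. The entries of the count table named miR-34a, miR-34b or miR-34c, of either arm, were taken if they held at least 10 counts over the 18 libraries. The 6 entries found among 909 were rno-miR-34a-5p, rno-miR-34a-3p, rno-miR-34b-5p, rno-miR-34b-3p, rno-miR-34c-5p and rno-miR-34c-3p, written below without the species prefix. The 18 male Brown Norway rats (substrain BN/SsNOlaHSD) carried no named transgene or deletion, and each gave 1 library. Young AL rats (replicates 1 to 6) were 6 months old and ate freely (ad libitum, AL). Old AL rats (replicates 7 to 12) ate freely up to 28 months, and old CR rats (replicates 13 to 18) reached the same age under caloric restriction, with 55% of the ad libitum intake from the age of 2 months. Together the comparisons ask how ageing and lifelong restriction alter muscle miRNAs. No young restricted rats are among the 18, so the effect of restriction can be read only at 28 months.

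MicroRNAs are short RNAs that pair through their seed, bases 2 to 8 from the 5′ end, with messenger RNAs and lower their stability and translation. The tumour suppressor p53 binds the promoters of the miR-34a gene and of the shared miR-34b/c gene, and the mature miRNAs in turn repress cell cycle regulators, Bcl2 and the deacetylase Sirt1, so that the family is widely studied in cell cycle arrest, apoptosis and cellular senescence. miR-34a is made in most tissues and has been linked to ageing of the heart and vessels, whereas miR-34b and miR-34c, with the related miR-449, are best known from ciliated epithelia and testis. Each hairpin gives a 5p and a 3p arm, and the 5p arm is the usual guide strand of this family.

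The mature sequences from RefSeq (GRCr8), matched for all 6 entries, are printed because the seed decides which arms can act on the same targets. The seed is in capitals.
miR-34a-5p: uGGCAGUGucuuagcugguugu
miR-34b-5p: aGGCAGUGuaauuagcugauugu
miR-34c-5p: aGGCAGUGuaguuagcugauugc
miR-449a-5p: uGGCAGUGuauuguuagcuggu
miR-449c-5p: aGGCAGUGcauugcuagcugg
miR-34b-3p: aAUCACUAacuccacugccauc
miR-34c-3p: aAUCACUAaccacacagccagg
miR-34a-3p: aAUCAGCAaguauacugcccua
The 3 miR-34 5p arms shared the seed GGCAGUG with miR-449a-5p and miR-449c-5p. miR-34b-3p and miR-34c-3p shared AUCACUA, and miR-34a-3p had AUCAGCA alone. Counted from the 5′ end, miR-34b-5p and miR-34c-5p were identical at 21 of 23 positions and differed by A11G and U23C, whereas miR-34a-5p was identical to miR-34c-5p at 11 of 22 positions. miR-34b-5p and miR-34c-5p are therefore the pair between which an imperfect read could most easily be split, and how the authors treated such reads is not given in the sources used here.

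In the GRCr8 annotation Mir34a lies on the plus strand of chromosome 5, inside the long non-coding RNA LOC103692514 and between H6pd and Gpr157. Mir34b and Mir34c are neighbours on the minus strand of chromosome 8, and both overlap Hoatz, a gene of cilia and flagella. Mir449a and Mir449c are neighbours on chromosome 2. The counts come from another rat build, Rnor_6.0, so no coordinates are given.

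Young AL replicates 1 and 2 carry library numbers 19 and 20, while the other libraries carry 3 to 18, and the labels give no reason. The libraries held 34940346 to 83110905 counts, of which 60.7 to 86.8% belonged to the 4 entries of the miR-1 family. Levels are CPM, counts scaled to a common library size, after TMM normalisation, whose factors ran from 0.639 to 2.14, both extremes in old AL. All 6 striated muscle miRNAs of the marker list were counted in every library, with summed levels of 91823 to 130836 CPM in young AL, 70542 to 139934 in old AL and 94476 to 187671 in old CR. Lists of other cell types, their summed levels and the libraries that stand apart are given beside the results that they touch.

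The family was a minor part of this muscle. miR-34a-5p was its most abundant arm, with 10756 counts over the 18 libraries, a mean of 8.96 CPM and rank 173 among the 689 known miRNAs with any count. miR-34c-5p followed with 5950 counts, a mean of 5.31 CPM and rank 198. The other arms were sparse, with 723 counts for miR-34b-5p, 507 for miR-34b-3p, 234 for miR-34c-3p and 30 for miR-34a-3p. For miR-34a and miR-34c the 5p arm was by far the more abundant, and the 5p to 3p ratio of miR-34c ran from 9.25 to 58.1 over the libraries. miR-34b departed from this, since its arms were near balance, with a 5p to 3p ratio of 0.80 to 2.78 and a median of 1.34. A 3p arm of 234 or 507 counts over 18 libraries limits any statement on single groups, where the totals of miR-34c-3p were 74, 78 and 82 counts in young AL, old AL and old CR.

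Over the 6 arms, none was called in any comparison. A call required a fold change of 1.5 or more with an adjusted p no higher than 0.05, in edgeR's quasi-likelihood test over all entries tested. Between old AL and young AL 0 of 6 arms were called, beside 3.28% of the 732 entries tested, and 2 of 6, miR-34a-5p and miR-34b-3p, had an unadjusted p under 0.05, beside 23.4% of entries. Between old CR and young AL 0 of 6 were called, beside 9.32% of 730 entries, and 0 of 6 had an unadjusted p under 0.05, beside 25.5%. Between the old groups 0 of 6 were called, beside 0.272% of 736 entries, and 0 of 6 had an unadjusted p under 0.05, beside 12.0%. DESeq2 called 0 of 6 in each comparison as well, beside 11.5%, 14.9% and 2.58% of entries. For every arm the ranges of the 3 groups overlapped. Over all entries 3.55%, 5.75% and 0.543% had groups that did not overlap in these comparisons, so 0 of 6 arms is near these shares.

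**Figure D1:**
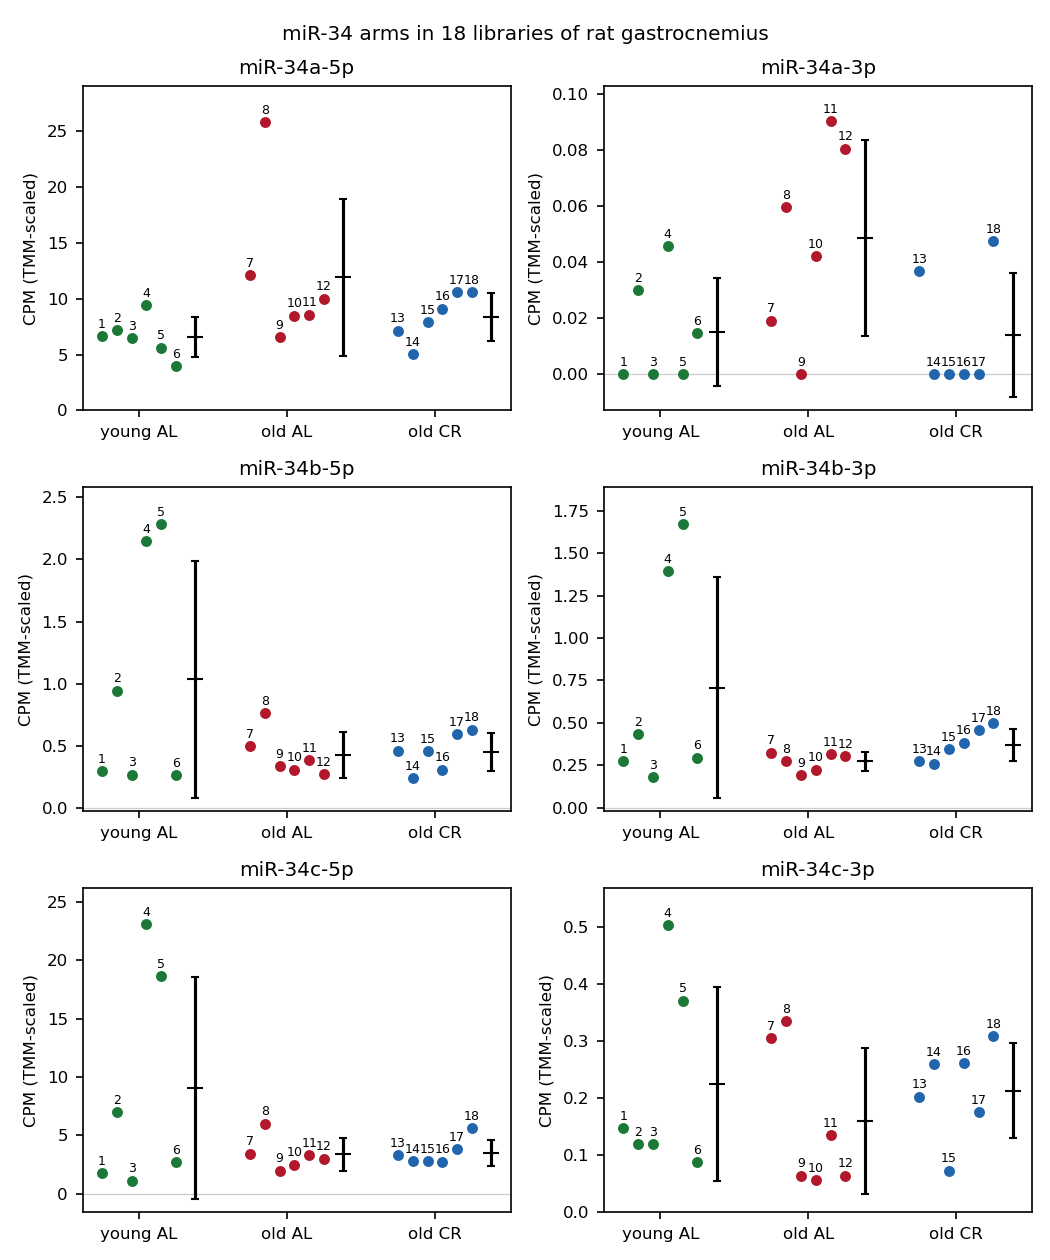
Levels of the 6 miR-34 arms in CPM after TMM scaling (vertical axes from 0, scales differ between panels), 1 point per library with its replicate number, and the mean ± SD of each group of 6 as a black bar. miR-34a-5p is highest in old AL replicate 8 (25.8 CPM), while miR-34b and miR-34c stand highest in young AL replicates 4 and 5.

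miR-34a-5p, the main guide strand of the p53-responsive miR-34a gene, had its highest levels in old AL, but the difference from young AL did not pass the test. It was 3.99, 6.57 and 9.42 CPM (lowest, median and highest of 6) in young AL. In old AL it was 6.56, 9.29 and 25.8 CPM, and in old CR 5.07, 8.51 and 10.6 CPM. Old AL replicate 8 stood far above every other library, the next being old AL replicate 7 at 12.1 CPM. Of the old AL libraries 3 lay above all of young AL, and 3 young AL libraries lay below all of old AL, so the groups overlapped.

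In young AL miR-34a-5p averaged 6.56 ± 1.79 CPM, compared with 11.9 ± 7.05 CPM for old AL and 8.41 ± 2.15 CPM for old CR (SD, n = 6 each). Against young AL, its log2 fold change in old AL was 0.85 (SE 0.310, edgeR adjusted p = 0.145; DESeq2 adjusted p = 0.0692). Without old AL replicate 8 it was 0.49, the lowest of the 12 fits that each left out 1 library, and the log2 ratio of the group medians was 0.50. Old CR differed from young AL by a log2 fold change of 0.35 (SE 0.228, edgeR adjusted p = 0.383) and from old AL by −0.50 (SE 0.327, edgeR adjusted p = 0.557). The difference between the diets at 28 months was −0.11 without old AL replicate 8, so most of it rested on that library.

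Old AL replicate 8 also stood apart in its leukocyte miRNAs. The summed level of the 5 leukocyte miRNAs, miR-142-3p, miR-142-5p, miR-150-5p, miR-155-5p and miR-223-3p, was 604 CPM there against 107 to 239 CPM in the other 17 libraries. All 5 had a log2 fold change above 0 in old AL against young AL, and none was called, beside 3.28% of all entries. The median of the sum was nonetheless 140 CPM in old AL and 159 CPM in young AL. Most of the sum was miR-150-5p, at a mean of 132 CPM over the 18 libraries, against 17.2 CPM for miR-142-5p, the next. From young to old AL, 2 of the 5 had an unadjusted p under 0.05, beside 23.4% of all entries. They were miR-142-5p (log2 fold change 2.25, SE 0.745, edgeR adjusted p = 0.113) and miR-223-3p (0.40, SE 0.152, edgeR adjusted p = 0.153). miR-150-5p had 0.15 (SE 0.286). Outside replicate 8, old AL held 1.68 to 3.13 CPM of miR-142-3p and 4.56 to 8.07 CPM of miR-155-5p. Young AL held 1.40 to 6.70 and 4.85 to 11.8 CPM of these. For miR-142-5p the ranges were 8.34 to 14.2 CPM in those old AL libraries and 4.02 to 8.75 CPM in young AL. miR-142-5p, a miRNA of blood cells, was 139 CPM in this library, while miR-155-5p, induced in activated immune cells, was 79.5 CPM. The summed epithelial list was 221 CPM in the same library, the highest of old AL, where the others held 43.5 to 86.3 CPM. In old CR replicate 18, which had the next highest leukocyte sum (239 CPM), miR-34a-5p was 10.6 CPM, level with old CR replicate 17 (10.6 CPM), whose leukocyte sum was the lowest of all (107 CPM). Old CR replicates 18 and 17 held 47.8 and 5.54 CPM of miR-142-5p. The part of leukocytes in the miR-34a-5p level was not tested. In whole muscle a change in the cells present cannot be told apart from a change in RNA per cell.

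**Figure D2:**
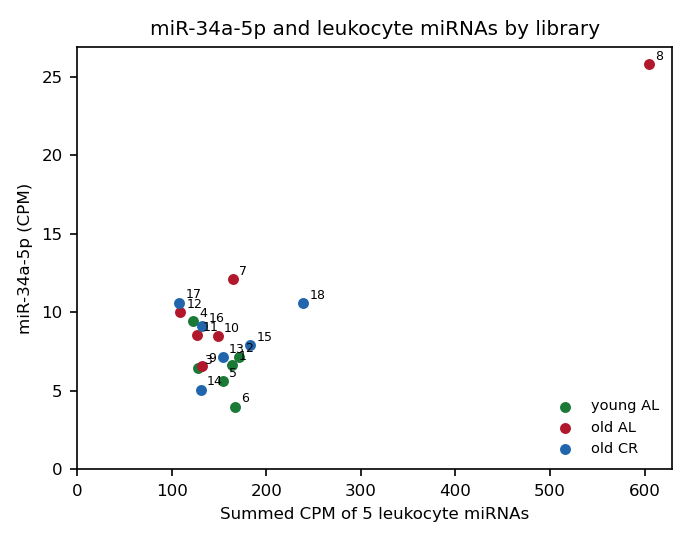
Level of miR-34a-5p (vertical axis, CPM) against the summed level of 5 leukocyte miRNAs (horizontal axis, CPM). Each point is 1 library with its replicate number, coloured by group. On average miR-150-5p is the largest part of the sum, at 132 CPM. Old AL replicate 8 lies alone at 604 and 25.8 CPM, and the other 17 libraries lie between 107 and 239 CPM of leukocyte miRNAs and at 12.1 CPM of miR-34a-5p or less.

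The 3 known miRNAs whose log2 CPM followed miR-34a-5p most closely, of 319 with a mean of at least 1 CPM, were miR-142-5p (Pearson r = 0.77, Spearman rho = 0.62), miR-203b-3p (r = 0.72, rho = 0.54) and miR-203a-5p (r = 0.72, rho = 0.57), over 18 libraries that share their scaling. miR-203 is a miRNA of keratinised epithelium. Within young AL the same correlations were 0.80, 0.70 and 0.65, within old AL, which holds replicate 8, 0.91, 0.95 and 0.94, and within old CR 0.39, 0.46 and 0.49 (n = 6 each).

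miR-34a-3p, the passenger arm, was counted between 0 and 5 times per library. Its total was 5 counts over the young AL libraries, 19 over old AL and 6 over old CR, and was at 0 in 3, 1 and 4 libraries of these groups, where a count of 0 allows up to 3 counts (0.0428 to 0.0898 CPM, counting error only). The log2 fold change from young AL to old AL was 1.56 (SE 0.967, edgeR adjusted p = 0.352).

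miR-34c-5p ranged widely among the young rats and far less among the old. It was 1.11, 4.86 and 23.1 CPM (lowest, median, highest) among young AL rats, 1.99, 3.16 and 6.00 CPM in old AL and 2.74, 3.04 and 5.63 CPM in old CR. Young AL replicates 4 and 5, at 23.1 and 18.7 CPM, and replicate 2, at 6.98 CPM, exceeded all 12 old libraries, while the other young rats, at 1.11, 1.77 and 2.73 CPM, were no higher than the lowest old CR library (2.74 CPM). Young muscle thus held both the highest and the lowest levels of the 18 libraries.

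In young AL miR-34c-5p averaged 9.06 ± 9.48 CPM, compared with 3.37 ± 1.40 CPM for old AL and 3.52 ± 1.12 CPM for old CR (SD, n = 6 each), so that the coefficient of variation was 105% among young rats, 41.4% among old AL and 31.9% among old CR rats. Its log2 fold change was −1.41 (SE 0.683, edgeR adjusted p = 0.237) in old AL against young AL and −1.37 (SE 0.683, edgeR adjusted p = 0.219) in old CR against young AL. These comparisons share the young libraries. The 12 fits that each left out 1 library gave −1.64 to −0.90 and −1.60 to −0.83. Old CR differed from old AL by a log2 fold change of 0.07 (SE 0.280, edgeR adjusted p = 0.978), and its sign changed with the scaling, from −0.22 by library totals to 0.07.

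miR-34b-5p, which shares a primary transcript with miR-34c, repeated this pattern at a lower level. It was 0.266, 0.620 and 2.28 CPM among young AL rats, 0.274, 0.361 and 0.765 CPM in old AL and 0.241, 0.459 and 0.630 CPM in old CR. The 3 young libraries above all old ones were again replicates 2, 4 and 5, at 0.945, 2.15 and 2.28 CPM, and the groups overlapped. Its log2 fold change was −1.26 (SE 0.580, edgeR adjusted p = 0.214) in old AL and −1.21 (SE 0.592, edgeR adjusted p = 0.214) in old CR, each against young AL.

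miR-34b-3p was 0.180, 0.365 and 1.67 CPM among young AL rats, 0.192, 0.291 and 0.325 CPM in old AL and 0.260, 0.366 and 0.499 CPM in old CR. Replicates 2, 4 and 5 were once more the highest of young AL, at 0.435, 1.39 and 1.67 CPM, although replicate 2 lay within the range of old CR. The log2 fold change from young AL to old AL was −1.36 (SE 0.522, edgeR adjusted p = 0.153), with an unadjusted p of 0.0230. Of the old CR libraries 4 of 6 lay above all of old AL, with a log2 fold change of 0.45 (SE 0.244, edgeR adjusted p = 0.459).

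miR-34c-3p, which has the same seed as miR-34b-3p, overlapped widely between the age groups. It was 0.0886, 0.134 and 0.503 CPM among young AL rats, 0.0563, 0.100 and 0.335 CPM in old AL and 0.0729, 0.231 and 0.309 CPM in old CR. Young AL replicates 4 and 5 were the highest of the 18 libraries at 0.503 and 0.371 CPM, but replicate 2, at 0.120 CPM from 8 counts, was not raised. Its log2 fold changes were −0.48 (SE 0.591, edgeR adjusted p = 0.707) in old AL and −0.07 (SE 0.496, edgeR adjusted p = 0.963) in old CR, each against young AL.

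**Figure D3:**
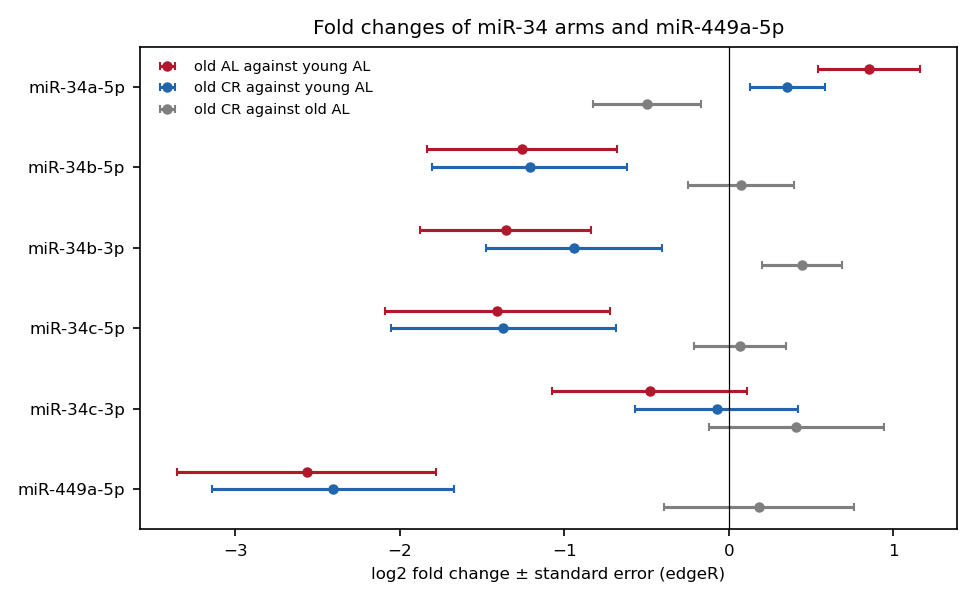
Log2 fold change (horizontal axis) of 5 miR-34 arms and miR-449a-5p in each comparison, from edgeR, with bars of 1 standard error; miR-34a-3p, with 30 counts in all, is left out. In both comparisons against young AL miR-34a-5p lies to the right of 0 and miR-34b-5p, miR-34b-3p, miR-34c-5p and miR-449a-5p to the left, and no arm of miR-34 passed the test.

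Of the chromosome 8 hairpins, miR-34c-5p and miR-34b-5p followed each other most closely over the 18 libraries. The ratio of miR-34c-5p to miR-34b-5p counts was 4.11 to 11.6 over the 18 libraries, with group medians of 7.78, 7.92 and 8.01 in young AL, old AL and old CR. Their log2 CPM correlated with r = 0.94 (rho = 0.85, n = 18 libraries), with 0.82 in the 16 libraries left without the 2 farthest from the median of miR-34c-5p and 0.80 in the 12 old libraries. For miR-34b-3p and miR-34c-5p r was 0.91 (rho = 0.73), with 0.73 in 16 libraries and 0.57 in the 12 old ones. The sparse miR-34c-3p followed less closely, with r = 0.64 (rho = 0.69) for miR-34c-5p and 0.62 (rho = 0.54) for miR-34b-3p, and the ratio of miR-34b-3p to miR-34c-3p counts was 0.82 to 4.75. miR-34a-5p, from chromosome 5, correlated with miR-34c-5p with r = 0.21 over 18 libraries (rho = 0.46), and within young AL, old AL and old CR with 0.38, 0.96 and 0.62 (n = 6 each). In the 12 old libraries this correlation was 0.75, and in the 16 without the 2 farthest 0.51. These values are descriptions, and the arms share libraries, depth and scaling.

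The make-up of the family differed between libraries, most of all in young AL. In young AL, miR-34a-5p made up 19.7 to 79.4% of all miR-34 counts, with a median of 49.9%. Its share was 67.0 to 77.7% (median 72.7%) among old AL rats and 58.7 to 71.2% (median 65.2%) among old CR rats. In young AL replicates 4 and 5 it supplied 25.7% (Wilson 95% interval 23.7 to 27.9%) and 19.7% (18.0 to 21.4%), and miR-34c-5p 63.1% and 65.2%. The ratio of miR-34c-5p to miR-34a-5p counts was 0.171 to 3.32 in young AL, 0.232 to 0.385 in old AL and 0.301 to 0.553 in old CR. The young group thus spanned the whole range, and the old groups formed a narrow band within it. The intervals cover counting error only.

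**Figure D4:**
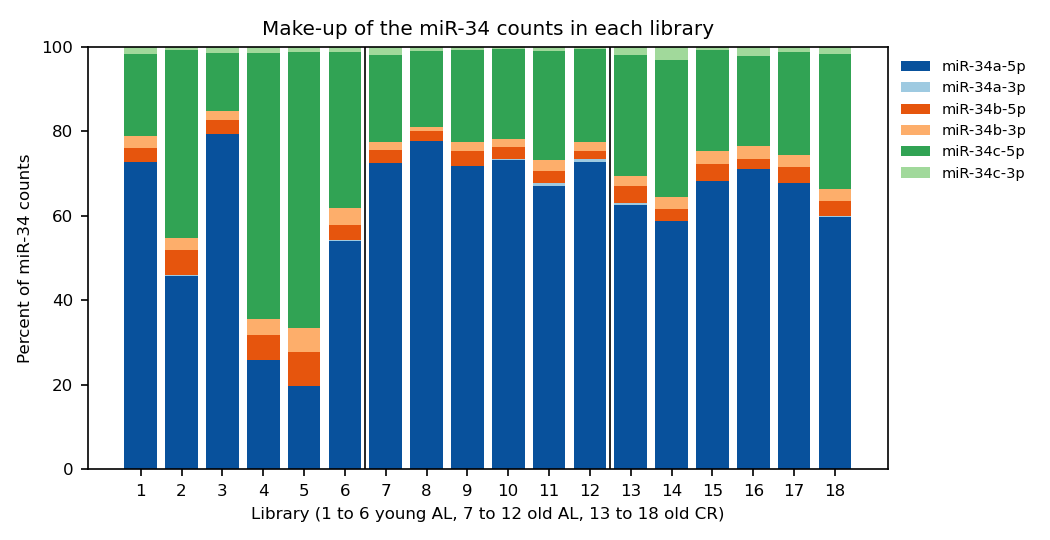
Share of each arm in the miR-34 counts of each library (vertical axis, percent, stacked to 100; horizontal axis, replicate number, with lines between the groups). miR-34c-5p takes 63.1 and 65.2% in young AL replicates 4 and 5, whereas miR-34a-5p takes 67.0 to 77.7% in every old AL library.

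miR-449a-5p, which carries the same seed from another chromosome, was highest in the same young rats. It was 0.0924, 0.493 and 1.83 CPM among young AL rats, 0.0141, 0.119 and 0.239 CPM in old AL and 0.0702, 0.120 and 0.262 CPM in old CR. Young AL replicates 4, 5, 2 and 6, at 1.83, 1.60, 0.660 and 0.325 CPM, exceeded all 12 old libraries, and replicates 1 and 3, at 0.0924 and 0.120 CPM, lay within both old ranges.

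The log2 fold change of miR-449a-5p was −2.57 (SE 0.789, edgeR adjusted p = 0.0963) in old AL and −2.40 (SE 0.736, edgeR adjusted p = 0.0608) in old CR, each against young AL. It was not called by edgeR, while DESeq2 called it in both, with adjusted p = 0.0124 and 0.00700. The log2 fold change between the old groups was 0.18 (SE 0.577, edgeR adjusted p = 0.971). Its totals were 267, 58 and 57 counts in the 3 groups, and its log2 CPM followed miR-34c-5p with r = 0.80 (rho = 0.57, n = 18), 0.50 in the 16 libraries without the 2 farthest and 0.56 in the 12 old libraries. miR-449c-5p had 10 counts in all, 4 of them in young AL, and miR-449a-3p and miR-449c-3p had 0 counts in every library.

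**Figure D5:**
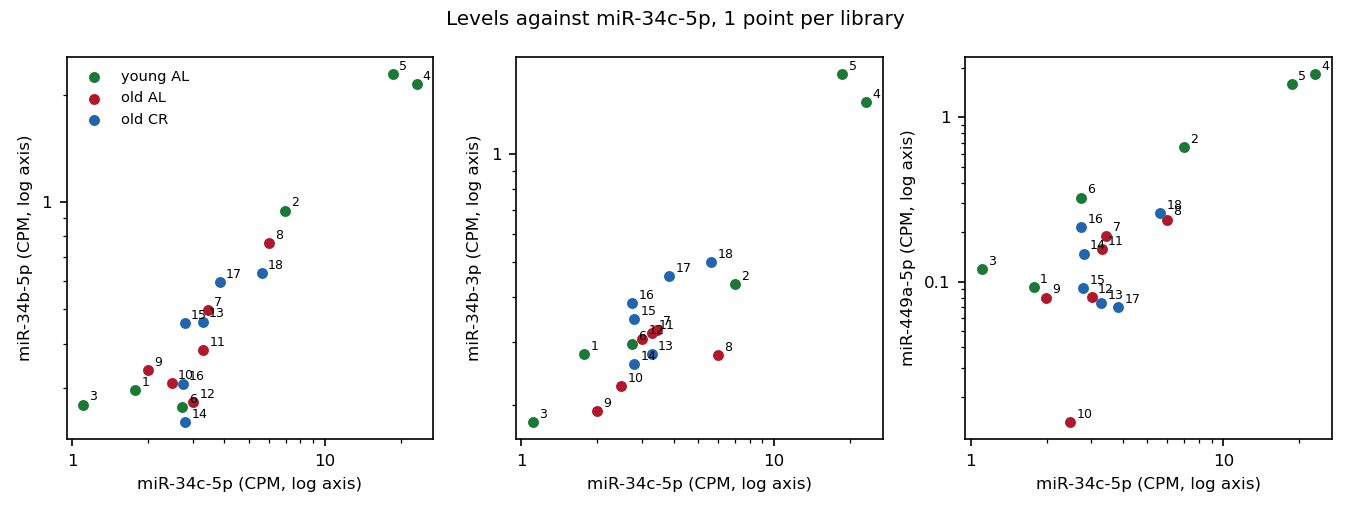
Levels of miR-34b-5p, miR-34b-3p and miR-449a-5p (vertical axes, CPM, log scale) against miR-34c-5p (horizontal axes, CPM, log scale), 1 point per library with its replicate number and coloured by group. Young AL replicates 4 and 5 lie at the upper right of all 3 panels, with miR-34c-5p at 23.1 and 18.7 CPM.

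miR-449 is a miRNA of ciliated epithelium, so the levels of other cell types were set beside miR-34b/c. The summed level of the 9 epithelial miRNAs was 23.2 to 68.9 CPM in young AL, 43.5 to 221 CPM in old AL and 31.5 to 1287 CPM in old CR. Young AL replicates 2, 4 and 5 held 23.2, 63.2 and 56.3 CPM, within the range of the other young libraries except for replicate 2, the lowest of all. Old CR replicate 14 had the highest epithelial sum, 1287 CPM, with miR-34c-5p at 2.80 CPM and miR-449a-5p at 0.148 CPM. Of that sum 837 CPM was miR-203a-3p, of keratinised epithelium, so the sum cannot show the level of ciliated cells. The part of ciliated cells in the miR-34b/c level was not tested. The leukocyte sums of the same 3 young libraries, 171, 123 and 154 CPM, included both ends of the young range of 123 to 171 CPM.

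The vascular miRNA miR-126a-3p did move with miR-34c-5p, miR-34b-5p and miR-34b-3p over the 18 libraries. Its level in young AL replicates 2, 4 and 5 was 6782, 7879 and 8033 CPM, against 4463, 5994 and 4612 CPM in replicates 1, 3 and 6. The other endothelial miRNA of the list, miR-126a-5p, at a mean of 88.0 CPM, did not move this way. Among young AL libraries miR-126a-5p was lowest in replicate 5 and highest in replicate 3, and in old AL it was not highest in replicate 8. The values that follow are again those of miR-126a-3p. It was the closest of 319 known miRNAs to miR-34c-5p (r = 0.72, rho = 0.72, n = 18), miR-34b-5p (r = 0.76, rho = 0.70) and miR-34b-3p (r = 0.69, rho = 0.58). The correlation of miR-126a-3p with miR-34b-5p was 0.87 within old AL, 0.91 within young AL and 0.36 within old CR (n = 6 each). Within old AL its correlation with miR-34c-5p was 0.997, compared with 0.81 in young AL and 0.53 in old CR (n = 6 each). Old AL replicate 8 was the highest of its group in both, at 7167 CPM of miR-126a-3p and 6.00 CPM of miR-34c-5p, and the other old AL libraries stood in the same order for both. Between the lowest and highest of the 18 libraries miR-126a-3p ranged from 3758 to 8033 CPM, a far narrower span than that of miR-34c-5p. The part of vascular cells in the miR-34b/c level was not tested.

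After miR-126a-3p, miR-34c-5p was most like miR-24-2-5p (r = 0.64, rho = 0.60) and miR-143-3p (r = 0.64, rho = 0.63), the latter a miRNA of smooth muscle. miR-34b-5p was most like miR-24-2-5p (r = 0.66) and miR-195-5p (r = 0.62), and miR-34b-3p like miR-24-2-5p (r = 0.68) and miR-24-1-5p (r = 0.65). miR-34c-3p had other neighbours, miR-152-5p (r = 0.77), miR-148a-5p (r = 0.75) and miR-148a-3p (r = 0.72), and miR-34a-3p, from its few counts, miR-21-5p (r = 0.56), miR-143-3p (r = 0.55) and miR-322-3p (r = 0.54). All are over 18 libraries.

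A predicted candidate, number 73 of the authors' list, repeated miR-34c-5p in part. It was counted in 4 libraries and at 0 in the other 14. In young AL replicates 4 and 5 it had 1007 and 1303 counts where miR-34c-5p had 1010 and 1308. In old AL replicate 11 and old CR replicate 13 its 146 and 178 counts equalled those of miR-34c-5p. Its 0 in young AL replicate 2, where miR-34c-5p had 465 counts, means that its presence did not follow the level. The candidate's fitted log2 fold change from young AL to old AL was −3.60 (SE 2.72, edgeR adjusted p = 0.465), and it was not called.

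Among the other miRNAs of the p53 pathway few were called. Of 13 miRNAs known to be raised by p53 through transcription or processing, 12 were matched in the table and tested. From young AL to old AL 0 were called higher and 1 lower, beside 0.956% and 2.32% of all entries, and 9 of 12 had a log2 fold change above 0, with a median of 0.04 beside 0.06 over all entries. The 1 called was miR-22-3p, a miRNA of striated muscle that drives senescence in cultured fibroblasts. It fell from 2077 ± 450 CPM in young AL to 1380 ± 124 CPM in old AL (SD, n = 6), a log2 fold change of −0.59 (SE 0.134, edgeR adjusted p = 0.0353), with no overlap between the groups. The fold change lay just past the threshold, and the call was lost in 9 of the 12 fits that each left out 1 library (all but those without young AL replicates 1 and 2 and old AL replicate 8), with an adjusted p of up to 0.0876. In old CR it was 1497 ± 270 CPM, with a log2 fold change of −0.48 against young AL (SE 0.167, edgeR adjusted p = 0.0969).

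None of the 12 was called between old CR and young AL (median 0.07, with 0.08 over all entries) or in old CR against old AL (median −0.05, with 0.01 over all). DESeq2 called 1, 0 and 0 of them in the 3 comparisons, beside 11.5%, 14.9% and 2.58% of all entries, and 3, 5 and 0 had an unadjusted p under 0.05, beside 23.4%, 25.5% and 12.0%. The most abundant, the smooth muscle miRNAs miR-143-3p and miR-145-5p, had log2 fold changes of 0.04 (SE 0.208) and 0.03 (SE 0.199) from young to old AL. miR-16-5p, which restrains cyclins, had −0.38 (SE 0.200, edgeR adjusted p = 0.269), and miR-192-5p, an inducer of cell cycle arrest, had 0.71 (SE 0.271, edgeR adjusted p = 0.153).

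Of 5 miRNAs that target the p53 message, miR-25-3p, miR-30d-5p, miR-125a-5p, miR-125b-5p and miR-504, none was called in any comparison by edgeR or DESeq2. miR-30d-5p, the most abundant at a mean of 4682 CPM, was the 1 member with an unadjusted p under 0.05, in old CR against old AL, with a log2 fold change of 0.37 (SE 0.120, edgeR adjusted p = 0.392). miR-125b-5p had −0.24 (SE 0.192, edgeR adjusted p = 0.503) from young to old AL.

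All 18 miRNAs of a list known from cellular senescence were tested. From young to old AL 0 of the 18 were called higher and 1 lower, beside 0.956% and 2.32% of all entries. The 1 was again miR-22-3p. Their median log2 fold change was 0.30, with 0.06 over all entries, and 13 of 18 lay above 0. The list was not split by the direction that each member takes in senescence. Its medians and counts therefore cannot show a shift towards or away from senescence. The higher values included miR-21-5p, a miRNA of fibrosis and inflammation (0.66, SE 0.253, edgeR adjusted p = 0.153), miR-146a-5p, a brake on NF-κB signalling (0.74, SE 0.194, edgeR adjusted p = 0.0652), and miR-29b-3p, which represses collagens (0.69, SE 0.240, edgeR adjusted p = 0.126). Of the other abundant members, miR-29a-3p had 0.28 (SE 0.140) and miR-24-3p, a repressor of p16, had −0.20 (SE 0.139). DESeq2 called 4 of the 18 here, miR-22-3p, miR-146a-5p, miR-29b-3p and miR-20a-5p, beside 11.5% of all entries, and edgeR gave 6 with an unadjusted p under 0.05, beside 23.4%. As with miR-34a-5p, the highest levels of miR-21-5p and miR-146a-5p were in old AL replicate 8, at 2530 and 550 CPM.

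From young AL to old CR 0 of these 18 were called higher, beside 4.11% of all entries, and 1 lower, beside 5.21%, with a median of 0.21 and 0.08 over all entries. The 1 called was miR-494-3p, of the Dlk1-Dio3 cluster, which fell from 3.54 ± 1.15 to 1.81 ± 0.444 CPM (SD, n = 6), a log2 fold change of −0.97 (SE 0.242, edgeR adjusted p = 0.0279), with overlapping groups. The call was lost without young AL replicate 2 or old CR replicates 13, 16 or 18, with an adjusted p of up to 0.0624, and also without young AL replicates 1 and 2 together (0.132). DESeq2 called miR-494-3p and miR-29b-3p, beside 14.9% of all entries. Between the old groups none was called by either tool and 0 had an unadjusted p under 0.05, with a median of −0.04 and 0.01 over all entries. Of the remaining marker lists, the 3 erythroid miRNAs summed to 3.29 to 11.7 CPM over the 18 libraries, and none was called by edgeR, while DESeq2 called miR-144-5p from young to old AL (log2 fold change 0.84, SE 0.250, edgeR adjusted p = 0.0879). The 6 neural miRNAs summed to 564 to 1012 CPM in young AL, 410 to 759 in old AL and 334 to 729 in old CR, nearly all of it miR-128-3p, at a mean of 571 CPM. From young AL to old CR 4 of the 6, miR-9a-5p, miR-9a-3p, miR-124-3p and miR-129-5p, were called higher, beside 4.11% of all entries, with log2 fold changes of 2.27 to 2.74 (edgeR adjusted p = 0.00685 to 0.0173), while miR-128-3p had −0.46 (edgeR adjusted p = 0.203).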

How the data were processed

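The authors removed adapters (Cutadapt) and poor-quality ends (Sickle), identified known miRNAs and predicted candidates with miRDeep2, and deposited raw counts, without normalisation, for 763 known miRNAs and 146 candidates in 18 libraries. Per the submitters' processing notes, cutadapt 1.2.1, Bowtie2 2.4.0 and Rnor_6.0 were used. For its differential analysis the paper names featureCount as the tool that gave the raw counts. The miRBase release and how reads fitting more than 1 miRNA were counted is not given in the sources used here. All columns were matched to samples, so that 0 were unused. Depth was 34940346 to 83110905 counts per library. Intervals reflect counting error alone, because the reads carry no molecular identifiers.

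Counts were scaled by TMM and tested with edgeR 4.0.16 in R 4.3.3 (quasi-likelihood, robust dispersion, two-sided, entries with at least 10 counts) with 1 fit per pair of groups (12 libraries), with Benjamini-Hochberg adjustment over all entries tested. Calls used the study's thresholds, a fold change of 1.5 or more at an adjusted p no higher than 0.05. The SE is the log2 fold change divided by the square root of F. DESeq2 1.42.0, named in the study's methods, was an alternative. The procedure was tested on simulated data. A prior count of 0.5 was added on the log2 scale for correlations.

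The text names every miR-34 and miR-449 entry, list members called in any comparison and otherwise up to 4 of each list by mean level, the 3 known miRNAs most like each arm, and candidates with matching counts (within 10% or 2 counts). miR-192-5p, miR-146a-5p, miR-29b-3p, miR-20a-5p and miR-144-5p were named after their values were seen. Members and lists were chosen with earlier results of these data known. Sequences and gene neighbours are from RefSeq GRCr8, matched by name. Alternatives were other scalings, filters and fits, known miRNAs only, each library left out and, chosen after seeing the data, the predicted candidate 73 left out. RT-qPCR, target predictions and cell culture are not analysed here.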

Additional observations from a re-analysis of the deposited data

Results flagged for a closer look

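In old AL replicate 8, miR-34a-5p was 25.8 CPM and miR-34c-5p was 6.00 CPM, each so far above the other 5 old AL libraries that the gap to the next one exceeded Dixon's 95% critical value for 6 samples. The gap was 0.712 of the range for miR-34a-5p and 0.637 for miR-34c-5p. Of 21 combinations of entry and group tested, 2 passed, and chance passes about 1 in 20 for independent, normally distributed values. Both passes fell in this library, and the 2 arms correlated with r = 0.96 within old AL, so they are not separate results. The same library had the highest leukocyte sum of the series, 604 CPM.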

How the results depend on the processing

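No paired analysis was possible because the replicate numbers are not shared between groups. No arm was called in any comparison under any alternative that tested it (filterByExpr kept 4 arms between old AL and young AL and 5 in the other comparisons, and in old CR against young AL 5 were tested without young AL replicate 2 or 4, old CR replicate 13 or 18, or young AL replicates 1 and 2 together), and the fold changes of miR-34a-5p, miR-34b-5p, miR-34b-3p and miR-34c-5p against young AL kept their sign wherever they were tested. Levels below 1 CPM rest on few counts, which limits the 3p arms, miR-34b-5p and miR-449a-5p.

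Between old AL and young AL the number of entries called, 24, was 0 by library totals, 13 with scaling by counts outside the miR-1 family, 84 with DESeq2, 99 with DESeq2 without its filters, 37 with filterByExpr, 38 in a single fit over the 3 groups, 53 with known miRNAs only and 9 to 20 with each library left out. In old CR against young AL, 68 became 109 and 129 with DESeq2 and 45 to 67 with each library left out. In old CR against old AL, 2 became 0 with upper-quartile scaling, library totals, scaling outside the miR-1 family, no robust estimation and known miRNAs only, 19 and 22 with DESeq2, and 0 to 3 with each library left out. The cause was not tested.

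Signs changed for small fold changes. In old CR against old AL miR-34c-5p was −0.030 with upper-quartile scaling, −0.22 by library totals, −0.073 outside the miR-1 family and −0.12 to 0.31 with a library left out. miR-34b-5p was −0.23, −0.064 and −0.048 to 0.32 by library totals, outside the miR-1 family and with a library left out, while miR-34c-3p was −0.17 and miR-449a-5p −0.21 by library totals, the latter −0.073 to 0.46 with a library left out. Library totals moved the median of all entries from 0.01 to −0.27 in this comparison, and relative to it miR-34c-5p was 0.054 and miR-34b-5p 0.037. In old CR against young AL miR-34a-3p was 0.043 with known miRNAs only and −0.27 to 0.24, and miR-34c-3p −0.24 to 0.32, with a library left out.

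miR-449a-5p was called between old AL and young AL with DESeq2 (adjusted p = 0.0124) and the single fit (adjusted p = 0.0497), and in old CR against young AL with DESeq2, upper-quartile scaling, filterByExpr, the single fit, known miRNAs only, and without young AL replicate 1, replicate 3 or replicates 1 and 2 (adjusted p = 0.00615 to 0.0486). miR-22-3p in old AL against young AL was not called with RLE, upper-quartile or library-total scaling, scaling outside the miR-1 family or no filter, at log2 fold changes of −0.59 to −0.42, and miR-494-3p in old CR against young AL was not called with library totals (adjusted p = 0.0539).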
